A study of Mus musculus with 18 samples.

Results

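Myostatin, the type II activin receptors, the follistatins and their nearest signalling partners were followed in isolated mouse myofibers after daily or weekly prednisone, a synthetic glucocorticoid. The 10 genes were taken as a named list (Mstn, Tgfb1, Acvr2a, Acvr2b, Fst, Fstl1, Fstl3, Smad2, Smad3 and Smad7) and matched by Ensembl identifier to symbol among the 43430 genes of the count table. All 10 were found, and all 10 passed the filter on low counts that left 13596 genes for testing.

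C57BL/6 mice of both sexes (C57BL/6J in the methods), 10 weeks old at the start, were injected intraperitoneally every day for 4 weeks. Daily mice received prednisone at 1 mg/kg at each injection. Weekly mice received the same dose on 1 day of the week and vehicle on the other 6 days, 5 prednisone injections in all with the last 2 days before sacrifice, and control mice received vehicle (DMSO in PBS) throughout. Each sex and treatment had 3 mice and 1 RNA library per mouse, so 18 libraries fell into 6 groups, and the p-values measure the spread between these mice. The RNA came from quadriceps digested with collagenase II, in the fraction retained by a 40-μm strainer, which can carry other cells of the muscle. In such bulk RNA, fewer cells of a type and less RNA per cell cannot be told apart. The libraries held 10506661 to 14686654 counts, and mitochondrial transcripts took 11.7% to 36.4% of them.

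Myostatin is a secreted ligand of the TGF-β family that limits muscle mass. It binds a type II activin receptor, which recruits and activates a type I receptor, and the active complex phosphorylates Smad2 and Smad3, which enter the nucleus with Smad4. Follistatin and follistatin-like 3 hold the ligand away from its receptors, while Smad7 blocks the pathway at the receptor.

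Myofiber transcripts dominated the libraries: the 8 myofibre markers, among them Acta1 and Ckm, summed to 100800 to 180400 CPM across all groups (CPM, counts scaled to a common library size). The 7 fibroblast markers summed to 783 to 2870 CPM, the 10 adipocyte markers to 761 to 7023 CPM, and the 10 macrophage markers to 37.4 to 134 CPM. All markers of these lists were detected in every group.

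Levels of different genes were compared per kilobase of exon. By the median over 18 libraries of CPM per kilobase, Smad3 stood at 13.7, Fstl1 at 11.7, Mstn at 7.85, Tgfb1 at 3.14, Acvr2a at 2.94, Fst at 1.80, Smad7 at 1.52, Smad2 at 0.977, Acvr2b at 0.414 and Fstl3 at 0.282. Neighbours in this order were not always separable. Smad3 exceeded Fstl1 in 11 of 18 libraries and Tgfb1 exceeded Acvr2a in 9 of 18, whereas Mstn exceeded Tgfb1 in 17 of 18. Within roles the gaps were wider. Acvr2a exceeded Acvr2b in all 18 libraries, with a median ratio of 6.83 (range 3.26 to 14.1), Smad3 exceeded Smad2 in all 18 with a median ratio of 12.8 (6.90 to 19.2), and Fstl1 exceeded Fst in all 18 with a median ratio of 6.07 (4.51 to 8.70).

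**Figure D1:**
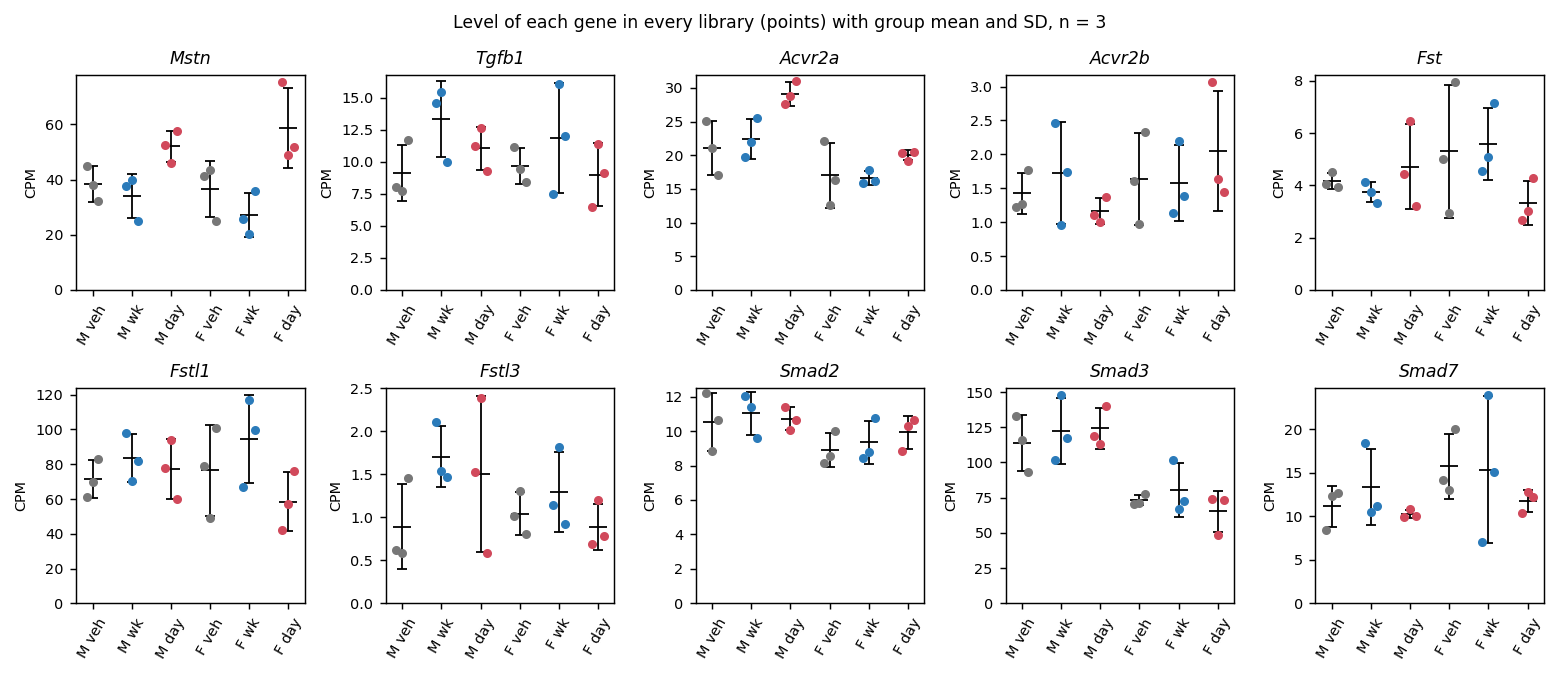
CPM (vertical axes, from 0) of each of the 10 genes in every library, by sex (M, F) and treatment (veh, vehicle; wk, weekly; day, daily); points are libraries, and bars show the group mean and SD (n = 3). The 6 daily Mstn libraries sit between 46.1 and 75.3 CPM, above the other 12, while the groups of most other genes overlap.

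Mstn was the member with a treatment difference past the threshold. In vehicle males it stood at 45.0, 38.1 and 32.1 CPM, in weekly males at 37.6, 39.9 and 25.0 CPM, and in daily males at 52.4, 46.1 and 57.5 CPM. In vehicle females it stood at 41.2, 43.4 and 24.9 CPM, in weekly females at 25.7, 20.2 and 36.0 CPM, and in daily females at 75.3, 48.8 and 51.9 CPM. Every one of the 6 daily libraries lay above every one of the 12 others, although the gap was narrow, from 45.0 CPM in the highest vehicle library to 46.1 CPM in the lowest daily one. Such a separation of the 6 daily libraries from the other 12, in either direction, was seen in 2.27% of tested genes, and Mstn was the only member to show it. The shares were 6.99% for 6 daily against 6 vehicle libraries and 3.81% for 6 daily against 6 weekly libraries, where Mstn was again the only member. The weekly and vehicle libraries overlapped in both sexes.

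Over both sexes, Mstn rose with daily prednisone by a log2 fold change of 0.56 ± 0.18 (SE; 1.47-fold) against vehicle, with an edgeR adjusted p of 0.0431. It was 1 of 10 members called in this comparison, in which 15% of all tested genes were called. Against weekly prednisone the log2 fold change was 0.85 ± 0.18 (1.81-fold, adjusted p = 0.0121), again 1 of 10 members beside 8.17% of all tested genes. These comparisons share the daily libraries. Weekly prednisone against vehicle gave a log2 fold change of -0.29 ± 0.18 over both sexes, with an adjusted p of 0.562.

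Within a sex no member was called by edgeR for daily against vehicle, beside 6.46% of tested genes for males and 0.382% for females, and DESeq2 and limma-voom called 0 members as well. An unadjusted p under 0.05 was found for 1 member in males, Acvr2a (22.8% of tested genes), and 1 in females, Mstn (17.3%). For daily against weekly edgeR called no gene in either sex (0%), with an unadjusted p under 0.05 for 2 members in males (13.5% of tested genes) and 3 in females (17.7%), while DESeq2 called 0 and 1 of them. The shares of all tested genes that DESeq2 and limma-voom called in these comparisons are not given here. For Mstn, the log2 fold change of daily against vehicle was 0.44 ± 0.25 in males, with an adjusted p of 0.316, and 0.68 ± 0.25 in females, with 0.171. The difference between these responses, female minus male, was 0.25 with a 95% interval from -0.50 to 0.997. Daily against weekly prednisone gave 0.61 ± 0.25 in males, with an adjusted p of 0.305, and 1.10 ± 0.25 in females, with 0.0711. Same-numbered female daily and weekly libraries deviated together. With that number as a block, chosen after the data were seen, the female value was 1.12 ± 0.24 with an edgeR adjusted p of 0.0307. That number is the one in the sample titles, and for 12 of the 18 libraries it differs from the number in the library name. The block thus rests on the correlation alone. Because the same libraries chose the block, its p-value cannot support a call.

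The call against vehicle lay close to the threshold. It was lost when any of 8 of the 12 libraries was left out (daily female 1 and 3, vehicle female 3, daily males 1, 2 and 3, and vehicle males 2 and 3), with log2 fold changes of 0.45 to 0.63 and adjusted p of 0.0403 to 0.0912 over all 12 omissions. The call against weekly prednisone remained in all 12 omissions, at 0.74 to 0.98. Mstn exons have a GC content of 38.1%, lower than all but 2.08% of tested genes. Each library's trend, on length and GC, of log2 CPM deviations from the gene mean was then removed. The difference was 0.34 ± 0.20 against vehicle (adjusted p = 0.341) and 0.78 ± 0.20 against weekly (adjusted p = 0.0642).

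**Figure D2:**
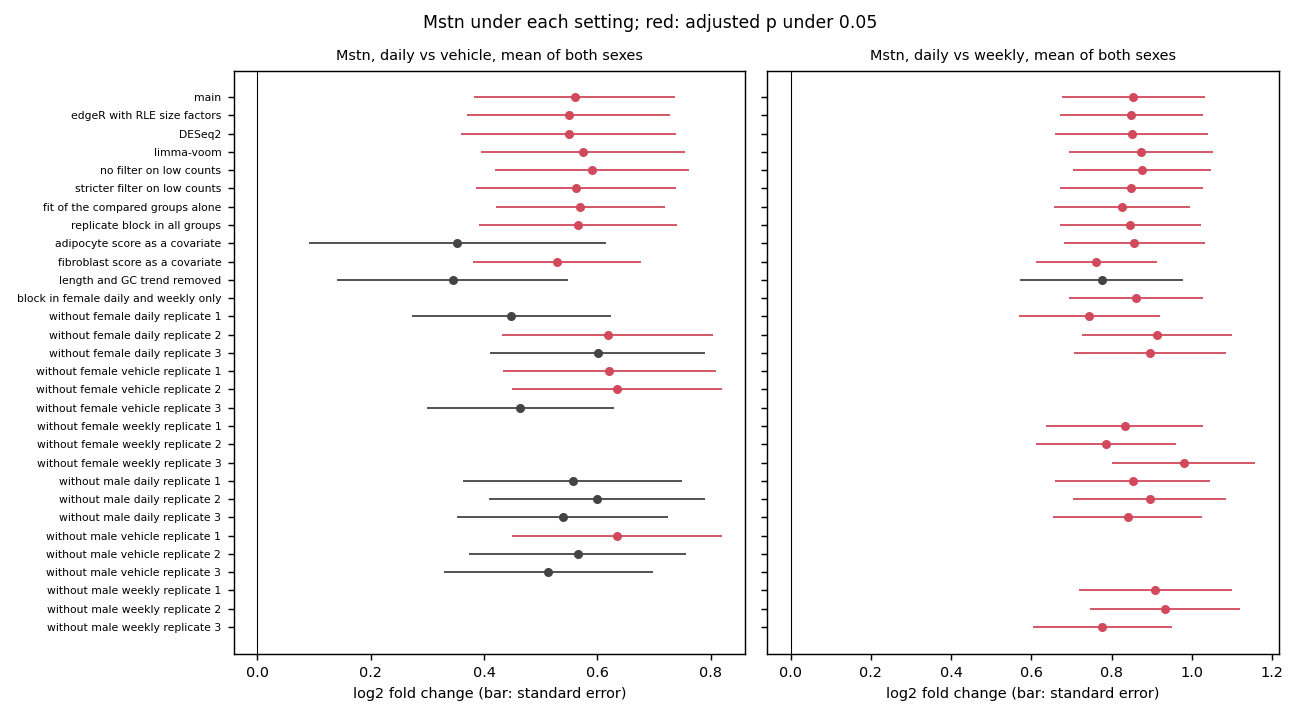
Mstn log2 fold change (horizontal axes; bars, standard error) for daily against vehicle and daily against weekly prednisone over both sexes, under each way of processing and with each library left out (vertical axis); red marks an adjusted p under 0.05. All values lie above 0, from 0.34 to 0.63 against vehicle and from 0.74 to 0.98 against weekly.

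Markers of other cells moved in the same comparison. Of the 10 adipocyte markers, 7 were called higher in daily than in vehicle libraries over both sexes, and their summed level was 1384 to 2471 CPM in daily against 761 to 1092 CPM in vehicle males, and 2141 to 4544 CPM in daily against 1096 to 1481 CPM in vehicle females. With the adipocyte marker score as a covariate, the Mstn difference from vehicle was 0.35 ± 0.26 (adjusted p = 0.535), and only 14 genes in all were then called. Of the 5 blood markers, 4 were called lower in daily libraries, which held 68.0 to 122 CPM of them against 96.5 to 175 CPM in vehicle. In the same comparison with vehicle, 2 of the 8 myofibre markers were called lower and 1 of the 10 macrophage markers was called higher. The myofibre markers went both ways there, with 4 of 8 higher and a middle value of -0.10 on the log2 scale. Between daily and weekly libraries, 4 of the 5 blood markers were called lower in daily ones, beside 126.6 to 201 CPM in weekly ones, 3 of the 8 myofibre markers were called higher, and 1 of 4 tendon markers was called lower. Of the adipocyte markers 1 was called higher, and of the macrophage markers 1 was called higher and 1 lower. Against weekly prednisone the myofibre and adipocyte lists as a whole did not follow these calls. Of the 8 myofibre markers 4 were higher in daily libraries, with a median log2 fold change of 0.008. Of the 10 adipocyte markers 2 were higher, with a median of -0.21. The mitochondrial share was 11.7% to 18.3% in daily females, 21.1% to 26.3% in vehicle females and 13.1% to 36.4% in weekly females, and in males it was 17.7% to 24.5%, 16.95% to 32.6% and 25.6% to 27.6%. With the adipocyte marker score as a covariate the call against weekly prednisone remained. The part of the other markers and of the mitochondrial share in the Mstn result was not tested.

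The Mstn gene lies on the forward strand of chromosome 1 (chr1:53061640-53068079 in mm10, 5166 exon bases). Its promoter is shown because Mstn was the called member. RefSeq promoters were matched for 7 of the 10 members (GRCm38.p6), and 4 short motifs were searched on both strands of the 250 bases before each start. They were the glucocorticoid receptor consensus ACANNNTGT (in 5.91% of 27025 promoters), the Smad-binding letters CAGAC (42.1%), the E-box CANNTG read by myogenic factors (66.0%) and the TATA box TATAAA (12.97%). In the sequence from chr1:53061390-53061639, forward strand, capitals mark 4 E-boxes and 1 TATA box.
Mstn: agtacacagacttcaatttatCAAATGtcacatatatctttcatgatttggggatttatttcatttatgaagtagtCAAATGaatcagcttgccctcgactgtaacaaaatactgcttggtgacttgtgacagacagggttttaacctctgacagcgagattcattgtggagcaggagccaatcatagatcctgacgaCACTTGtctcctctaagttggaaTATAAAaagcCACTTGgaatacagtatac
The E-boxes begin 229, 174, 52 and 19 bases before the start and the TATA box 29 bases before it. CAGAC was matched 244 and 120 bases before the start, and ACANNNTGT was not matched in this window.

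The tested genes whose log2 CPM followed Mstn most closely over the 18 libraries were Uba1 (Pearson r = 0.907), Tor1aip1 (0.907), Naa25 (0.903), Herc2 (0.902) and Mars (0.900). Across the tested genes, 105 had an r above 0.8 with Mstn, and all these values come from the same libraries and share their depth and treatment groups.

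Tgfb1, the TGF-β1 ligand, showed no called difference. It stood at 7.99, 7.75 and 11.7 CPM in vehicle males, 14.6, 15.5 and 9.97 CPM in weekly males and 11.2, 12.6 and 9.30 CPM in daily males. In females it stood at 11.2, 9.45 and 8.42 CPM with vehicle, 7.51, 16.1 and 12.02 CPM weekly and 6.45, 11.4 and 9.12 CPM daily, and all treatment groups overlapped in both sexes. Its log2 fold change with weekly prednisone over both sexes was 0.42 ± 0.19 (unadjusted p = 0.0463, adjusted p = 0.444 by edgeR). No member and none of the 13596 genes was called for weekly against vehicle by edgeR, a share of 0% in males, in females and over both sexes. Unadjusted p-values under 0.05 were found for 5.71%, 7.97% and 11% of genes in these comparisons, and DESeq2 called 1, 152 and 183 genes, no member among them.

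Among the related ligands, Gdf11, which shares receptors with myostatin, was lower than Mstn per kilobase in all 18 libraries (median ratio of Mstn to Gdf11, 3.33). Gdf11 stood at 14.5, 13.9 and 12.7 CPM in vehicle males and 6.69, 6.30 and 6.09 CPM in vehicle females. The female libraries were all lower, a separation seen in 18.9% of tested genes in either direction. The log2 fold change was -1.11 ± 0.19 with an edgeR adjusted p of 0.0069, in a comparison in which 0.765% of tested genes were called. Its daily response over both sexes was 0.07 ± 0.13 (adjusted p = 0.778). The group means went different ways by sex, from 6.36 to 8.10 CPM in females and from 13.7 to 11.9 CPM in males. Daily females, at 6.95 to 9.44 CPM, lay above vehicle females without overlap, as for 23.1% of tested genes in either direction. Weekly males, at 9.06 to 12.3 CPM, lay below vehicle males, a separation seen in 16.7%. No treatment difference of Gdf11 from vehicle was called by edgeR. Inhba, which encodes the subunit of activin A, was near the limit of detection, with 9 to 22 counts in the 3 libraries of a group, and did not pass the filter. Tgfb2 rose with daily prednisone over both sexes by 0.37 ± 0.10 (adjusted p = 0.0219). The call was lost without daily female 3 (adjusted p = 0.0553) and with the length and GC trend removed (0.26, adjusted p = 0.165). It was also lost with the adipocyte marker score as a covariate (0.48, adjusted p = 0.134), where few genes of any kind were called.

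Acvr2a encodes the more abundant of the type II activin receptors. In males it stood at 25.0, 21.1 and 17.1 CPM with vehicle, 19.7, 21.9 and 25.6 CPM weekly and 27.6, 28.7 and 31.0 CPM daily. In females it stood at 22.1, 12.6 and 16.3 CPM with vehicle, 15.9, 17.8 and 16.1 CPM weekly and 20.3, 19.1 and 20.5 CPM daily. The daily libraries lay above the weekly ones in both sexes, lay above the vehicle ones in males, and overlapped the vehicle ones in females. In either direction, groups that did not overlap were found for 33.4% of tested genes between daily and vehicle males, and for 24.5% and 17.2% between daily and weekly males and females.

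The Acvr2a difference did not pass the threshold. Daily against vehicle gave a log2 fold change of 0.47 ± 0.17 in males, 0.23 ± 0.18 in females and 0.35 ± 0.12 over both sexes, with adjusted p-values of 0.120, 0.535 and 0.0694. Over both sexes it passed when vehicle female 1 (0.48, adjusted p = 0.0119) or vehicle male 1 (0.43, adjusted p = 0.0448) was left out, and with the fibroblast marker score as a covariate (0.35, adjusted p = 0.0472). Acvr2a shares 446 exon bases with Orc4 on the opposite strand, and whether the counting used strand is not given in the sources used here. The genes most like Acvr2a over the 18 libraries were Tgfb2 (r = 0.887), Rock2 (0.873), Eif3a (0.870), Nr3c1, the glucocorticoid receptor gene (0.867), and Pkn2 (0.867). For deviations from the group means, r was lower, at 0.707, 0.552, 0.767, 0.636 and 0.852 in the same order.

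Acvr2b, the other type II activin receptor, was close to 1 CPM in many libraries and ranged from 0.961 to 3.07 CPM, with 9 to 40 counts a library. Its log2 fold change over both sexes was -0.00 with daily prednisone, with a 95% interval from -0.53 to 0.52, and 0.10 with weekly prednisone, from -0.52 to 0.71. At these counts a difference smaller than these intervals was not detectable. The ratio of Acvr2a to Acvr2b per kilobase was 12.5 ± 1.48 (SD, n = 3) in daily males, against 7.66 ± 2.68 in vehicle males and 5.34 ± 1.91 in daily females.

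Of the 6 type I receptors that work beside them, 3 were called for daily against vehicle over both sexes, beside 15% of all tested genes. Acvr1b, which encodes ALK4, the main type I receptor for activins and myostatin, stood at 77.9, 77.7 and 68.0 CPM in daily females, 37.5, 55.2 and 55.2 CPM in vehicle females and 29.1, 42.4 and 49.6 CPM in weekly females. In males it stood at 63.9, 46.4 and 48.2 CPM daily, 51.1, 45.1 and 36.7 CPM with vehicle and 41.7, 34.3 and 32.3 CPM weekly. The daily libraries were above the weekly ones in both sexes, and above the vehicle ones in females. In either direction, 24.5% of tested genes did not overlap between daily and weekly males and 17.2% between daily and weekly females. Between daily and vehicle females the share was 23.1%. Acvr1b rose against weekly prednisone by 0.72 ± 0.14 over both sexes (adjusted p = 0.00995), while against vehicle it gave 0.43 ± 0.14 (adjusted p = 0.0542).

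Tgfbr1, which encodes the TGF-β type I receptor ALK5, rose with daily prednisone against vehicle by 0.44 ± 0.09 over both sexes (adjusted p = 0.00405) and against weekly by 0.38 ± 0.09 (adjusted p = 0.0182). Its males stood at 26.6, 25.0 and 28.0 CPM daily against 17.3, 18.8 and 17.1 CPM with vehicle, with no overlap, as for 33.4% of tested genes in either direction. Bmpr1a, a BMP type I receptor, rose by 0.47 ± 0.11 against vehicle (adjusted p = 0.0127) and 0.49 ± 0.11 against weekly (adjusted p = 0.0178). Both receptors kept their calls with any 1 library left out. Against vehicle they lost them with the length and GC trend removed (Tgfbr1 0.21, adjusted p = 0.164, and Bmpr1a 0.27, adjusted p = 0.159). They also lost them with the adipocyte marker score as a covariate (0.37 and 0.30, adjusted p = 0.179 and 0.400), where few genes of any kind were called. Against weekly the calls were lost with the length and GC trend removed (0.24 and 0.39, adjusted p = 0.162 and 0.0791) and in the fit of the compared groups alone (adjusted p = 0.0638 and 0.0547). Acvr1c, which encodes ALK7, a receptor abundant in fat cells, rose by 3.02 ± 0.85 against vehicle (adjusted p = 0.0262) from 0.109 to 0.762 CPM in vehicle to 0.614 to 9.85 CPM in daily libraries. With the adipocyte marker score as a covariate its value turned to -0.33, and the call was lost on leaving out daily female 3, vehicle female 2 or 3, daily male 1, or vehicle male 1 or 3 (2.42 to 3.67 over all 12 omissions). Acvr1 gave 0.28 ± 0.11 (adjusted p = 0.104) and Bmpr1b -0.08 ± 0.21 (adjusted p = 0.835) against vehicle.

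**Figure D3:**
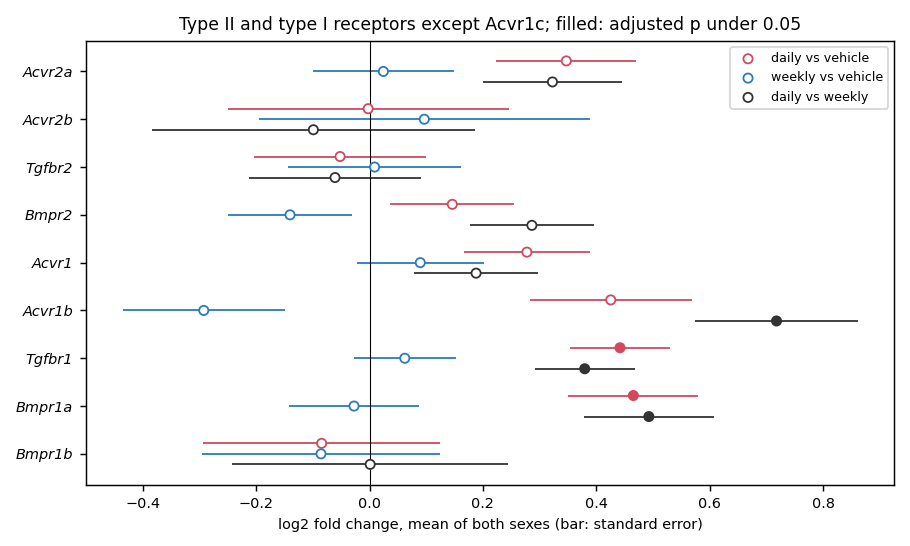
Log2 fold change over both sexes (horizontal axis; bars, standard error) of type II and type I receptors for the 3 treatment comparisons; filled points have an adjusted p under 0.05, and Acvr1c is left out because its values near 3 exceed the axis. The points for daily against vehicle and daily against weekly are filled for Tgfbr1 and Bmpr1a, for Acvr1b against weekly alone, and for no type II receptor.

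Fst encodes follistatin, which binds activins and myostatin. In females it stood at 4.996, 2.93 and 7.97 CPM with vehicle, 4.56, 5.07 and 7.17 CPM weekly and 2.69, 3.02 and 4.29 CPM daily. In males it stood at 4.04, 4.51 and 3.96 CPM with vehicle, 4.13, 3.75 and 3.35 CPM weekly and 4.45, 6.48 and 3.23 CPM daily. The daily females lay below the weekly females without overlap, as 17.2% of tested genes did in either direction, and the male groups overlapped.

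No Fst difference was called. Daily against weekly gave -0.74 ± 0.32 in females and 0.35 ± 0.32 in males, with adjusted p-values of 0.230 and 0.703, and daily against vehicle gave -0.67 ± 0.32 and 0.19 ± 0.32, with 0.292 and 0.760. The female minus male response to daily prednisone was -0.86 with a 95% interval from -1.82 to 0.09. Per kilobase, Mstn exceeded Fst in all 18 libraries. The ratio was 8.48 ± 3.74 (SD, n = 3) in daily females, 3.94 ± 2.64 in vehicle females and 2.21 ± 0.38 in weekly females, and 5.53 ± 2.42, 4.18 ± 0.76 and 4.10 ± 0.72 in daily, vehicle and weekly males.

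Fstl3, follistatin-like 3, was the lowest member, at 0.588 to 2.39 CPM and 6 to 38 counts a library. In males it stood at 0.615, 0.589 and 1.46 CPM with vehicle and at 2.11, 1.54 and 1.46 CPM weekly, where the lowest weekly value lay just above the highest vehicle value. The log2 fold change was 0.95 ± 0.47 (adjusted p = 0.849), in a comparison in which 16.7% of tested genes had groups that did not overlap. In females it was 0.30 ± 0.47, and there 0 members had weekly and vehicle groups that did not overlap, beside 8.07% of tested genes. Fstl3 shares 1157 exon bases with Prss57 on the opposite strand, which held 16 counts over all libraries.

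The Fstl3 promoter is shown because it alone among the 7 matched promoters held the letters of the glucocorticoid receptor consensus. In the 250 bases at chr10:79777024-79777273, forward strand, capitals mark that match, 208 bases before the start, together with 3 E-boxes and a TATA box read on the reverse strand.
Fstl3: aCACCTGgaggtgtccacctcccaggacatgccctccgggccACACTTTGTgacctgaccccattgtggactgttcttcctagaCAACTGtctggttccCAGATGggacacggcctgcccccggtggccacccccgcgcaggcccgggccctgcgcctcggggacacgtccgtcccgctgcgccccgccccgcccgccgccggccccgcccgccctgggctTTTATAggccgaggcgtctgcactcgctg
The match is a description of letters. Fstl3 was not called in any comparison.

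Fstl1, follistatin-like 1, is a secreted glycoprotein named for its similarity to follistatin. In females it stood at 79.3, 49.1 and 101 CPM with vehicle, 66.8, 117 and 99.7 CPM weekly and 42.4, 57.3 and 75.9 CPM daily. In males it stood at 61.2, 69.9 and 83.2 CPM with vehicle, 98.1, 70.5 and 81.9 CPM weekly and 77.6, 94.1 and 59.7 CPM daily. All groups of a sex overlapped. Daily against weekly gave -0.40 ± 0.19 over both sexes (adjusted p = 0.217), which passed the threshold with the fibroblast marker score as a covariate (-0.27 ± 0.06, adjusted p = 0.00526).

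Fstl1 followed the fibroblast markers from library to library. Against the mean log2 CPM of the 7 markers, Pearson r was 0.944 and Spearman rho 0.930 over 18 libraries (permutation test, two-sided, p = 1e-05 for both, the smallest 100000 resamples can give; 0.001 after Benjamini-Hochberg adjustment over 100 relations, 10 members by 9 marker lists and the mitochondrial share). Without the 2 libraries farthest from the median r was 0.905, and for deviations from the group means it was 0.989. Of 13589 tested genes outside the marker list, Fstl1 had the highest r. Fst gave r = 0.786 and rho = 0.742 (permutation p = 0.00015 and 0.00076; adjusted, 0.003 and 0.0109), 0.773 without the 2 extremes and 0.773 within groups. Against the fibroblast markers Mstn gave -0.53 and rho = -0.46 (permutation p = 0.024 and 0.0594; adjusted, 0.0800 and 0.165), r was -0.18 without the 2 extremes, so the pooled relation rested on those libraries, and -0.59 for deviations from the group means.

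Mstn was lower in libraries with more RNA of several other kinds. Against the blood markers r was -0.698 and rho -0.796 (permutation p = 0.00131 and 0.0002; adjusted over the same 100 relations, 0.0132 and 0.005), with r = -0.565 without the 2 extremes and -0.449 within groups. Against the tendon markers r was -0.628 and rho -0.608 (permutation p = 0.00541 and 0.00893; adjusted, 0.0301 and 0.0438), with -0.462 and -0.734. Against the mitochondrial share r was -0.613 and rho -0.622 (permutation p = 0.00694 and 0.00708; adjusted, 0.0337 and 0.0417), with -0.320 and -0.492. These relations hold the treatment groups as well, and the part of any of them in the Mstn result was not tested. The permutations, here and for the other members, moved all 18 libraries without regard to group. Their p-values thus also measure differences between the groups, and none is given for the relations within groups.

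**Figure D4:**
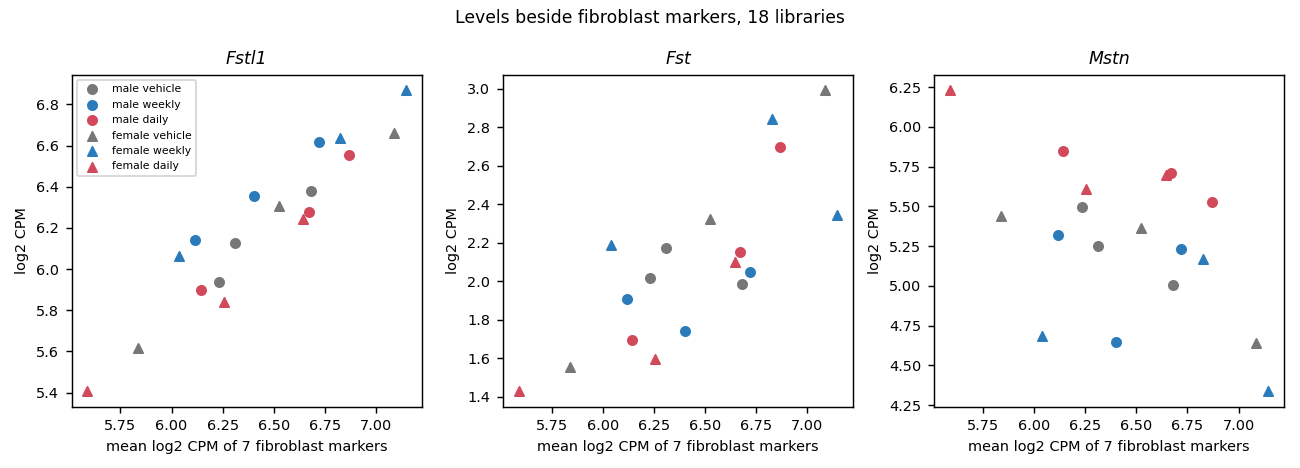
Log2 CPM of Fstl1, Fst and Mstn (vertical axes) against the mean log2 CPM of 7 fibroblast markers (horizontal axes) in 18 libraries; color marks treatment and shape marks sex. Fstl1 rises with the markers in a narrow band (r = 0.944), Fst more loosely (r = 0.786), and Mstn slopes downward (r = -0.53).

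Smad3, the receptor-regulated Smad at the higher level, stood at 133, 116 and 93.3 CPM in vehicle males and 70.7, 71.5 and 77.5 CPM in vehicle females. The female libraries lay below the male ones without overlap, as did 18.9% of tested genes in either direction. The log2 fold change was -0.64 ± 0.20 (edgeR unadjusted p = 0.00534, adjusted p = 0.199), so it was not called. No member was called between the sexes in vehicle mice by edgeR, beside 0.765% of tested genes, and Smad3 was the 1 member with an unadjusted p under 0.05, beside 10.4% of tested genes. Daily prednisone gave 118.9, 113 and 140.3 CPM in males and 74.2, 48.7 and 73.6 CPM in females, and the log2 fold change over both sexes was -0.02 with a 95% interval from -0.32 to 0.28.

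Smad2 had a narrow range, from 8.13 to 12.2 CPM over all 18 libraries. Its log2 fold change over both sexes was 0.09 with daily prednisone, with a 95% interval from -0.15 to 0.32, and 0.06 with weekly prednisone, from -0.17 to 0.30.

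Smad7, the inhibitory Smad, stood at 14.1, 13.04 and 20.1 CPM in vehicle females and 10.4, 12.8 and 12.3 CPM in daily females, which did not overlap, as for 23.1% of tested genes. The log2 fold change was -0.42 ± 0.33 (adjusted p = 0.549). Vehicle females also lay above vehicle males without overlap (0.50 ± 0.33, adjusted p = 0.631), as 18.9% of tested genes did not overlap in either direction. Weekly females spread from 7.04 to 23.9 CPM, across both other groups. In males vehicle libraries stood at 8.43, 12.4 and 12.7 CPM and daily libraries at 9.94, 10.8 and 10.1 CPM, inside the vehicle range. Smad7 followed several kinds of RNA from library to library. Pearson r was 0.769 with the tendon markers (rho = 0.763, permutation p = 9e-05 and 0.00027; adjusted, 0.003 and 0.0054), 0.733 with the endothelial, 0.702 with the Schwann cell and 0.657 with the fibroblast markers, 0.669 with the mitochondrial share and -0.654 with the myofibre markers. The adjusted p-values of r for the last 5 were 0.00617, 0.0132, 0.0219, 0.0219 and 0.0233.

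**Figure D5:**
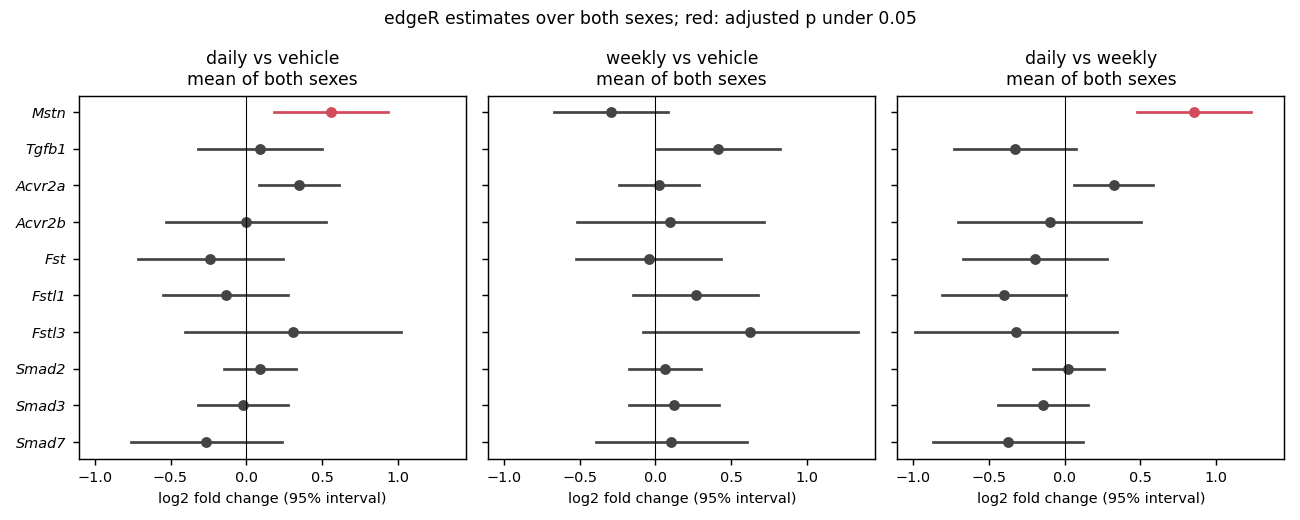
Log2 fold change with 95% interval (horizontal axes) of the 10 members over both sexes, for daily against vehicle, weekly against vehicle and daily against weekly prednisone; red marks an adjusted p under 0.05. Mstn is red at 0.56 and 0.85 in the daily comparisons, and in the weekly comparison with vehicle no member is red.

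As a group the members had a median log2 fold change of 0.04 with daily prednisone over both sexes, beside 0.02 for all tested genes, and 5 were higher and 5 lower. With weekly prednisone the median was 0.10 beside 0.02, and for daily against weekly it was -0.17 beside -0.02.

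A list of 71 other genes of the pathway was examined beside the members, of which 65 passed the filter. With daily prednisone over both sexes, 9 rose and 1 fell, 15.4% beside 15% of all tested genes, and the median log2 fold change of the list was 0.12 beside 0.02. By role, 4 of 14 receptors and co-receptors rose, 3 of 12 Smads and intracellular regulators rose and 1 fell, 1 of 11 ligands and 1 of 10 target genes rose, and none of 18 extracellular inhibitors, latency proteins and processing enzymes was called. In males alone 3 rose and 1 fell, 6.15% beside 6.46% of all tested genes. These were Fbxo30, Tgfbr1 and Ndst1, and Fkbp1a, whose calls in males remained in 5, 2, 1 and 0 of 6 omissions. In females alone no listed gene was called, beside 0.382% of all tested genes.

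Fbxo30, a ubiquitin ligase gene that BMP signalling holds down in muscle, had the smallest p of the list and rose by 0.80 ± 0.14 (adjusted p = 0.00184). It stood at 19.5, 17.8 and 21.9 CPM in daily males against 9.66, 10.01 and 10.1 CPM in vehicle males, and at 11.7, 17.9 and 17.6 CPM in daily females against 10.8, 10.3 and 10.03 CPM in vehicle females. The daily libraries lay above the vehicle ones in both sexes. Fkbp1a, whose product FKBP12 binds type I receptors and holds them inactive, fell by 0.35 on the log2 scale (SE 0.08, adjusted p = 0.00815). Ndst1, the listed target gene that rose, encodes an enzyme of heparan sulfate synthesis and was higher by 0.44 ± 0.10, the ubiquitin ligase genes Smurf1 and Smurf2 rose by 0.30 ± 0.09 and 0.26 ± 0.08, and Rgmb, a BMP co-receptor gene, rose by 0.28 ± 0.09. The adjusted p-values were 0.00798, 0.0409, 0.0451 and 0.0427. The calls of Fbxo30, Fkbp1a and Ndst1 remained in all 12 omissions of a library. Smurf1 stayed called only without vehicle female 3 or vehicle male 3, Smurf2 only without vehicle female 1 or daily male 1, and Rgmb only without vehicle female 1 or 2, daily male 3 or vehicle male 1, so these 3 calls lay at the threshold. With the length and GC trend removed Smurf2 stood at 0.11 (adjusted p = 0.579). With the adipocyte marker score as a covariate, where few genes of any kind were called, none of these 6 genes was called. Against weekly prednisone 6 listed genes rose (Acvr1b, Tgfbr1, Bmpr1a, Fbxo30, Rgmb and Ndst1) and Pmepa1, a target gene of TGF-β signalling, fell, 10.8% beside 8.17% of all tested genes. Pmepa1 (-0.49, edgeR adjusted p = 0.0481) and Rgmb (0.30, edgeR adjusted p = 0.0448) lay at the threshold. Their calls remained in 8 and 6 of 11 alternatives, and each in 3 of 12 omissions.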

How the data were processed

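The deposited values were whole-number read counts per gene for 18 libraries. Per the labels the authors used TopHat2 2.1.0, Bowtie2 2.2.6 and HTSeq, and the methods name mm10; the labels also name mm9 with no role. The annotation release and strand setting are not given in the sources used here. Of 43430 identifiers, 42462 had a symbol, and the other 968 took at most 0.0814% of a library's counts. Unused sample columns numbered 0.

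Counts were filtered (edgeR 4.0.16 filterByExpr, minimum count 10), scaled by TMM and tested by robust quasi-likelihood fits to 6 group means over all 18 libraries in R 4.3.3. The p-values were adjusted by Benjamini-Hochberg over 13596 genes and called under 0.05. CPM used TMM-scaled library sizes, and log2 CPM a prior count of 2. DESeq2 1.42.0 and limma-voom 3.58.1 were alternatives. The steps were tested on simulated data. The members and gene lists were chosen with earlier results of these data known. Named genes were all members, up to 10 called pathway genes by smallest p, type I receptors, Inhba and Gdf11, and the 5 genes most like Mstn and Acvr2a. Pmepa1 and the other type II receptors, which appear only in a plot, were added after their values were seen.

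Replicate numbers were checked for pairing by correlating deviations from group means. Only female daily and weekly libraries of the same number deviated together (0.501, 0.483 and 0.439), and the pairing comes from that check, not from the labels.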

Additional observations from a re-analysis of the deposited data

How the results depend on the processing

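The count of called members over both sexes was 1 for daily against vehicle, beside 15% of all tested genes. It was 0 with the adipocyte score as a covariate, where few genes of any kind were called and the Mstn value went from 0.56 to 0.35. The adipocyte markers were higher in daily libraries too, so their part and that of the treatment cannot be told apart here. The count was 0 with the length and GC trend removed, 2 with the fibroblast score as a covariate, and 0 to 2 with single libraries left out. Such counts under other settings show only whether a member's own call changed. The share of all tested genes called is not given here for most of these settings. For daily against weekly over both sexes it was 1, beside 8.17% of all tested genes. It became 2 with the fibroblast score and 0 with the length and GC trend removed. For daily against weekly in females it was 0, and became 1 with DESeq2, with the fibroblast score, and with the replicate block in the female daily and weekly libraries, an alternative chosen after seeing the data. That block moved the count over all genes from 0 to 522. With the replicate block in all groups, the member count stayed at 1, 1 and 0 in these comparisons, and the pairing changed no other member count. Acvr1c, daily against vehicle, reversed to -0.33 with the adipocyte score. For named pathway genes, some but not all calls lost under an alternative or an omission stand beside their values in the report. Against vehicle over both sexes, the calls of Smurf2, Rgmb, Acvr1c and Smurf1 remained in 4, 5, 6 and 7 of 10 alternatives. With the adipocyte score, where few genes of any kind were called, no named pathway gene stayed called for daily against vehicle. The cause of these changes was not tested. With 3 mice a group, the median standard error of a daily log2 fold change in males was 0.229 on the log2 scale, which sets the precision, and for Acvr2b and Fstl3 low counts limited precision.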
